A study of Rattus norvegicus with 10 samples.

Results

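The genes of the pancreatic acinar cell, which makes and secretes digestive enzymes, were examined on 10 expression arrays of isolated rat islets. The members were 36 genes picked by symbol, with earlier results of these data known. Shares over all genes beside their counts are therefore no test of the set. The 36 were secreted enzymes and their inhibitors, proteins of the zymogen granule, acinar transcription factors, and a receptor, a water channel and a metabolic enzyme. A single-symbol probe set was found for 33 of them, out of 14217 genes measured, and Rnase1, Rbpjl and Cckar were not analysed here. Where a gene had several probe sets, the brightest on average stands for it, and no filter on dim signals was applied, so all 33 entered every test. Values are log2 RMA intensities, in which 1 unit is a doubling of signal, and differences are on the same log2 scale with their standard error (SE).

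Each of 5 groups of rats 40 days old had 2 arrays. DR+/+ rats resist diabetes unless it is induced and lack the lyp mutation. JBlyp/lyp rats are diabetes prone and homozygous for lyp, and JB rats, like DR+/+, lack it and are resistant but inducible. F344lyp and F344 are healthy control strains, and the protocols write the first as F344lyp/lyp. The protocols speak of congenic BB (BioBreeding) rats, a model of autoimmune diabetes, and take DR+/+ and JBlyp/lyp from DRlyp/+ breeders. The relation of the JB strain to the DR strain is not given there. The lyp locus carries a defect of Gimap5, a GTPase that T cells need to survive. Per the protocols, rats were fasted before islet isolation and only males were used, a sentence that lists no JB group. Islets were freed by collagenase injected into the duct and purified on a density gradient. The titles call the arrays biological replicates and do not say whether each holds 1 animal or a pool.

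Acinar cells surround the islets and make up most of the pancreas. They store inactive proenzymes in zymogen granules and release them when the intestine signals a meal, and trypsin then activates the other proenzymes. The program is driven by the PTF1 complex, built of Ptf1a, an E-box partner and Rbpjl or Rbpj, together with Nr5a2 and Bhlha15 (MIST1). Isolated islets carry acinar RNA from cells or debris that stay attached. On bulk arrays, fewer acinar cells and less RNA per acinar cell cannot be told apart.

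The labelled tissue was checked against islet markers. The insulin gene Ins1 lay between 13.86 and 14.27 on all 10 arrays, where the highest signal of any probe set was 14.12 to 14.37. The DR+/+ arrays stood apart from the others in their islet markers. The mean of 12 beta cell markers was 8.93 to 8.98 on DR+/+ arrays, against 10.75 to 10.89 on JBlyp/lyp and JB arrays and 10.66 to 10.87 on F344lyp and F344 arrays. The comparison of BB with F344 is therefore also given without DR+/+. A measure of RNA integrity also moved with the background: the Gapdh 3′ probe set exceeded the 5′ probe set by 2.75 to 3.71 on the 6 BB-related arrays and by 2.19 to 2.43 on the 4 F344lyp and F344 arrays. For Actb the same difference overlapped, at 2.57 to 4.17 on BB-related arrays and 2.72 to 3.06 on F344lyp and F344 arrays.

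The promoters of the members were read for the binding motif of the PTF1 complex, since its subunit gene Ptf1a is a member and the enzyme genes moved together. The complex is known to bind a bipartite site made of an E-box and a TC box. The motifs searched on both strands were CACCTG (E-box) and TTTCCCA (TC box), in windows of 250 bases before to 50 after the RefSeq start in assembly GRCr8, which held 28 of the 33 members. The E-box was present in 15 of 28 member promoters (53.6%) and in 18.7% of 27457 promoters of all genes. The TC box was present in 4 of 28 (14.3%), against 8.08% of all. Both were present somewhere in the window in 3 of 28 (10.7%), against 1.37% of all. No rule on their spacing or strand was set, so the bipartite site itself was not searched for. Those 3 promoters are shown, of the chymotrypsinogen gene Ctrb1, the carboxyl ester lipase gene Cel and the elastase gene Cela3b. That of the trypsin family gene Prss3bl1 is shown too, because its signal differed most between the backgrounds. They run 5′ to 3′ along the gene, and capitals mark the E-boxes and TC boxes of either strand.

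Ctrb1 promoter, chr19:56566929-56567228, minus strand: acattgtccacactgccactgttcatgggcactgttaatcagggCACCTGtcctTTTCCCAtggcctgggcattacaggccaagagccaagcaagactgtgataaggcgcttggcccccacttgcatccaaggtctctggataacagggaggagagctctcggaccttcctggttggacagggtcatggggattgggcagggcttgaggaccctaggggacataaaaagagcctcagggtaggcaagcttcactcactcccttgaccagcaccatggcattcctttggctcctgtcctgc
Cel promoter, chr3:32288970-32289269, minus strand: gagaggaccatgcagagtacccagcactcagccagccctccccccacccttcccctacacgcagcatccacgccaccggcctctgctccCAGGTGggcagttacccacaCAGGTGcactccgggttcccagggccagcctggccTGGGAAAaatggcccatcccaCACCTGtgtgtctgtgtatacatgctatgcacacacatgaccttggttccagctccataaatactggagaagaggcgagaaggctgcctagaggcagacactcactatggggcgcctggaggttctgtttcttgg
Cela3b promoter, chr5:154920284-154920583, minus strand: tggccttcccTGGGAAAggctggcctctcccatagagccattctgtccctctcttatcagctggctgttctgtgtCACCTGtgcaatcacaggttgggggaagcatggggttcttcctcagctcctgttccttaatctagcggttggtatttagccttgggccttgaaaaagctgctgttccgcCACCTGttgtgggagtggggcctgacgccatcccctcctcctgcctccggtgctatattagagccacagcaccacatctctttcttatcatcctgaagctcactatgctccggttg
Prss3bl1 promoter, chr4:70770237-70770536, minus strand: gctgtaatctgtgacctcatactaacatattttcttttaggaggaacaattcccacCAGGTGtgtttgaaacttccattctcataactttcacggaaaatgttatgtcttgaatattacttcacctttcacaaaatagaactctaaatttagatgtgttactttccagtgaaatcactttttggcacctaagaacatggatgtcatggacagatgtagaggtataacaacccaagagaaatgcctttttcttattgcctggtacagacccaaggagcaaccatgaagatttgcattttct

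In the Ctrb1 promoter the E-box spans bases -206 to -201 and the TC box bases -196 to -190 from the start (start base 0), both on the gene's strand. Cel holds 3 E-boxes and 1 TC box, Cela3b 2 E-boxes and 1 TC box, and Prss3bl1 a single E-box. The NR5A2 motif CAAGGTCA was found in 1 of 28 (3.57%), that of Cel, against 1.48% of all promoters, and the MIST1 E-box CAGCTG in 4 of 28 (14.3%), against 15.1%. A match is a description of the sequence and no evidence of binding.

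The comparison of the BB-related groups (DR+/+, JBlyp/lyp and JB) with the F344 groups (F344lyp and F344) asks whether islet expression differs between the diabetes-susceptible and the healthy background. Averaged over the groups, the acinar genes were lower in the BB-related islets, most of them in each of the 3 groups. All 33 were called lower in this contrast of means (limma, Benjamini-Hochberg over all probe sets), where 24.6% of all genes were called lower and 13.3% higher. Their median difference was -2.70, with a range from -5.94 to -0.85, and the median over all genes was -0.04. For 31 of the 33, each of the 6 BB-related arrays lay below each of the 4 F344lyp and F344 arrays, which held for 10.6% of all genes. Of the 100 genes with the most negative difference, 29 were members.

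**Figure D1:**
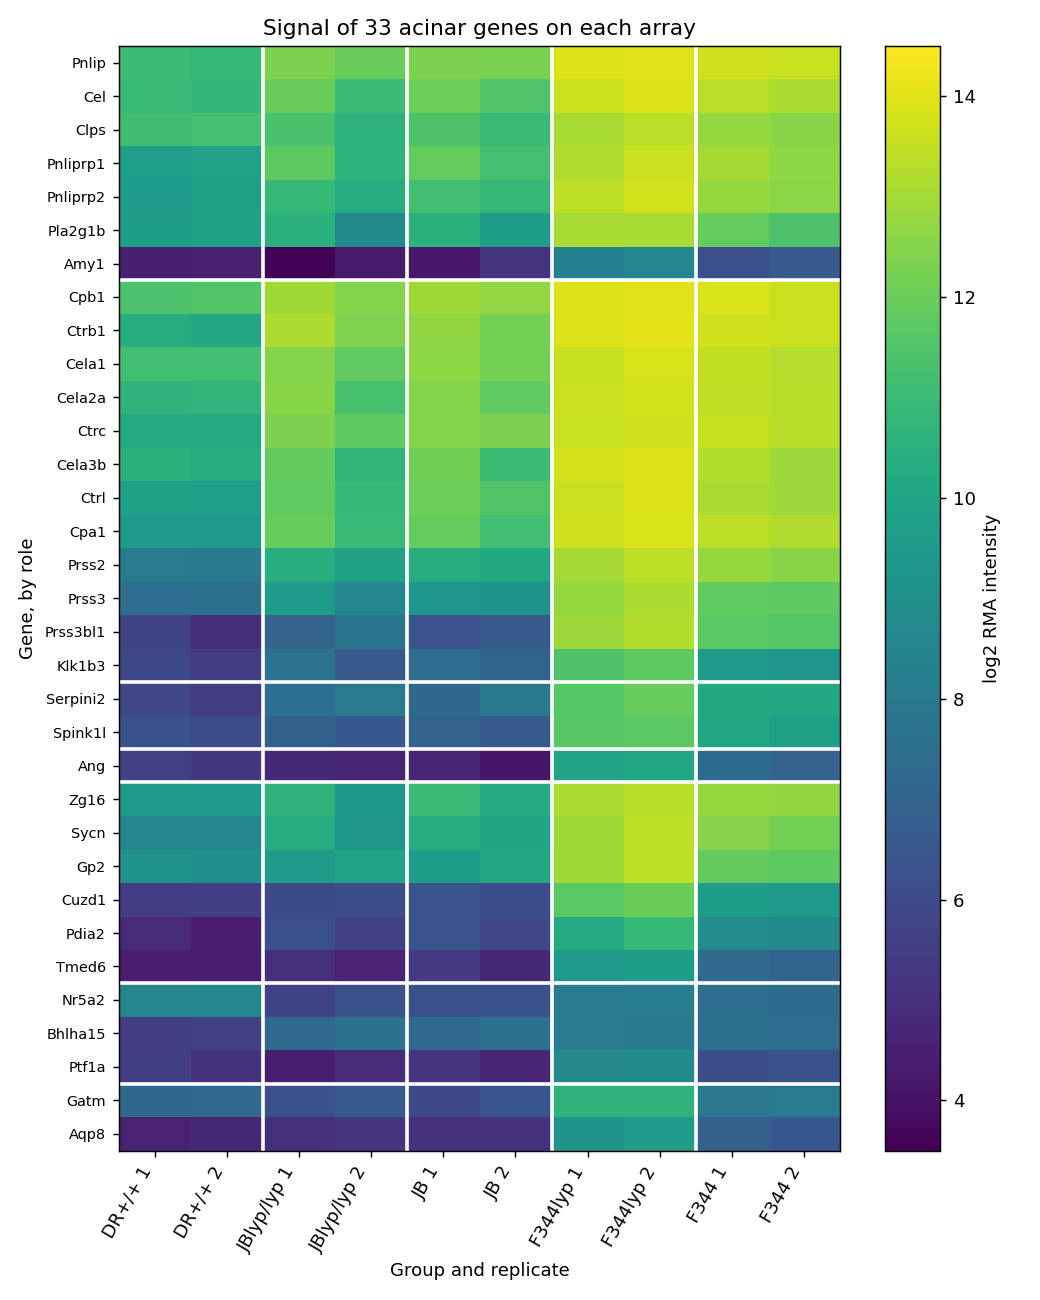
Signal of the 33 acinar genes (rows, grouped by role with white lines) on each of the 10 arrays (columns, by group and replicate), as log2 RMA intensity on the colour scale. The 4 F344lyp and F344 columns are brighter than the 6 columns of DR+/+, JBlyp/lyp and JB in nearly all rows, with exceptions at Nr5a2 and Bhlha15.

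Enzymes that digest starch and fat were lower in 7 of 7 cases, with a median of -2.26. Amy1, an amylase, had 4.46 and 4.52 on DR+/+ arrays, 3.59 and 4.29 on JBlyp/lyp arrays and 4.24 and 5.16 on JB arrays, against 8.33 and 8.57 on F344lyp arrays and 6.18 and 6.65 on F344 arrays. No BB-related array overlapped with an F344lyp or F344 array, and the log2 difference was -3.06 (SE 0.20, limma adjusted p = 8.17e-06). All 6 BB-related values lay below the median signal of their array (5.39 to 5.44), so the size of this difference is uncertain, and a brighter probe set shared with another amylase gene differed by -0.11 (SE 0.08). Clps, the colipase that anchors lipase to fat droplets, had 11.13 and 11.25 in DR+/+, 11.34 and 10.59 in JBlyp/lyp and 11.44 and 10.94 in JB, against 13.07 and 13.34 in F344lyp and 12.78 and 12.53 in F344. Its difference of -1.82 (SE 0.16) was the smallest of the class. The pancreatic lipase gene Pnlip stood at -1.98, its relatives Pnliprp1 at -2.26 and Pnliprp2 at -2.70, the bile salt-stimulated lipase Cel at -2.13 and the phospholipase Pla2g1b at -2.53.

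All 12 protease genes were lower, with a median of -2.39. Prss3bl1 had 5.75 and 4.96 in DR+/+, 6.99 and 7.80 in JBlyp/lyp and 6.36 and 6.64 in JB, against 12.91 and 13.24 in F344lyp and 11.69 and 11.60 in F344. The gap between the highest BB-related array and the lowest F344 array was wider here than the spread within either side, and the difference was -5.94 (SE 0.19, 61.5-fold lower, limma adjusted p = 9.09e-08). The trypsinogen genes Prss2 and Prss3 stood at -3.47 and -3.79, and the kallikrein gene Klk1b3, a serine protease, at -3.79. Chymotrypsinogen and elastase genes, whose products need trypsin to become active, lay between -2.42 (Ctrl) and -1.62 (Cela1). Of the carboxypeptidases, which trim peptides from their C-terminal end, Cpa1 stood at -2.72 and Cpb1 at -1.52. Cpb1 had 11.39 and 11.50 in DR+/+, 12.94 and 12.45 in JBlyp/lyp and 12.94 and 12.72 in JB, against 13.92 and 14.01 in F344lyp and 13.82 and 13.63 in F344. Its F344lyp and F344 values lay close to the highest signal of those arrays, 14.12 to 14.27. Trypsin, kallikrein and elastase genes belong to families with similar sequences, and the share of signal from a relative was not tested.

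Both protease inhibitors were among the larger falls. Spink1l, of the family of secreted trypsin inhibitors, had 6.22 and 6.01 in DR+/+, 6.90 and 6.54 in JBlyp/lyp and 7.02 and 6.72 in JB, against 11.65 and 11.72 in F344lyp and 10.09 and 9.75 in F344, a difference of -4.23 (SE 0.12, limma adjusted p = 3.64e-08). Serpini2, a serpin of the exocrine pancreas, had 5.85 and 5.43 in DR+/+, 7.50 and 8.08 in JBlyp/lyp and 7.21 and 7.96 in JB, against 11.59 and 11.94 in F344lyp and 10.17 and 10.12 in F344, a difference of -3.95 (SE 0.18). The ribonuclease gene Ang had 5.62 and 5.28 in DR+/+, 4.71 and 4.64 in JBlyp/lyp and 4.69 and 4.14 in JB, against 9.94 and 10.08 in F344lyp and 7.41 and 6.95 in F344. Ang fell by 3.75 (SE 0.14), and here DR+/+ was the highest of the 3 BB-related groups, unlike for the inhibitors. For Ang 5 of the 6 BB-related values lay below the median signal of their array, so the size of its difference is uncertain.

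The 6 genes of the zymogen granule and of protein folding and transport were lower as well, with a median of -3.45. Cuzd1, a protein of the granule membrane, had 5.51 and 5.53 in DR+/+, 5.95 and 6.15 in JBlyp/lyp and 6.41 and 6.15 in JB, against 11.67 and 12.01 in F344lyp and 9.68 and 9.46 in F344. The difference was -4.75 (SE 0.11, 27.0-fold lower, limma adjusted p = 1.03e-08), and the BB-related arrays spanned less than 1 unit. Gp2, the main glycoprotein of the granule membrane, had 9.10 and 8.97 in DR+/+, 9.60 and 9.94 in JBlyp/lyp and 9.61 and 10.16 in JB, against 12.93 and 13.42 in F344lyp and 11.86 and 11.77 in F344, a difference of -2.93 (SE 0.14). The pancreatic disulfide isomerase Pdia2 stood at -4.11, the transport protein Tmed6 at -3.63, the granule protein syncollin, encoded by Sycn, at -3.27 and the granule lectin Zg16 at -2.96. Aqp8, a water channel of the apical acinar membrane, had 4.54 and 4.72 in DR+/+, 5.03 and 5.14 in JBlyp/lyp and 5.08 and 5.06 in JB, against 9.18 and 9.53 in F344lyp and 6.87 and 6.47 in F344, and its difference was -3.09 (SE 0.11). Gatm, which makes the precursor of creatine and is abundant in acinar cells, stood at -2.70 (SE 0.13). For Tmed6 and Aqp8 all 6 BB-related values lay below the median signal of their array, so the size of their differences is uncertain.

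These p-values leave out the spread between groups of 1 background. With the group as a random block 29 of the 33 stayed called, and Ctrb1, Ctrc, Bhlha15 and Nr5a2 did not. In that fit 2.83% of all genes were called lower and 0.935% higher. Without the DR+/+ arrays 32 stayed called, all but Bhlha15, with a median of -2.66, where 16.8% of all genes were called lower and 8.76% higher. With the Gapdh 3′ to 5′ difference as a covariate the median was -2.82 and 1 member, Cuzd1, was called, where 2 of all 14217 genes were called lower and 1 higher. Because that covariate did not overlap between the backgrounds, RNA integrity and background cannot be told apart.

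**Figure D2:**
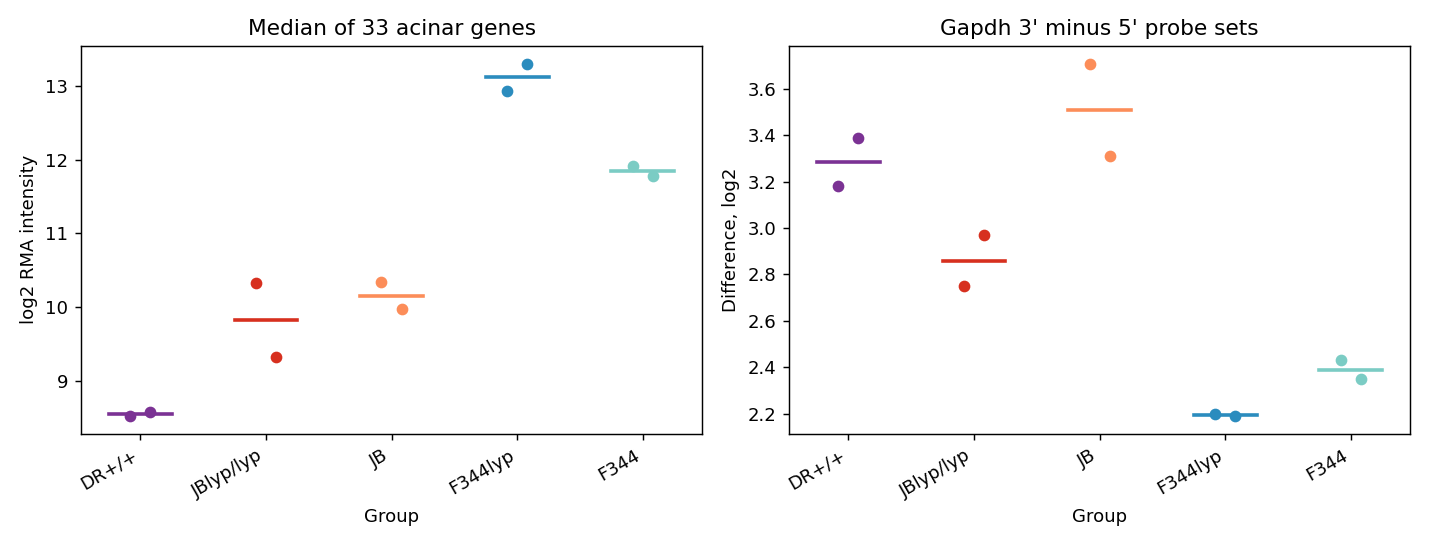
Median log2 intensity of the 33 acinar genes on each array (left) and the Gapdh 3′ minus 5′ log2 difference of the same arrays (right), by group, with points for arrays and lines for group means. The acinar median is 8.52 and 8.57 in DR+/+ and 12.94 and 13.31 in F344lyp, and the Gapdh difference is 2.75 to 3.71 on the BB-related arrays and 2.19 to 2.43 on the F344lyp and F344 arrays.

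The background was then compared within each lyp genotype, between groups that share no array. With lyp, JBlyp/lyp against F344lyp, 32 of 33 members were called lower and 0 higher, where 11.3% of all genes were called lower and 4.7% higher, and the median difference was -3.20. Without lyp, JB against F344, 31 were called lower and 0 higher, where 8.22% of all genes were called lower and 4.79% higher, and the median was -1.65. The genes not called were Bhlha15 with lyp, at -0.53 (adjusted p = 0.0613), and Bhlha15 and Pla2g1b without it, at -0.06 (adjusted p = 0.883) and -1.57 (adjusted p = 0.0642, limma). Cuzd1 stood at -5.79 (SE 0.17) with lyp and -3.29 (SE 0.17) without, and Ang at -5.33 (SE 0.22) with and -2.77 (SE 0.22) without. Prss3bl1 stood at -5.68 (SE 0.30) with and -5.14 (SE 0.30) without. The count without lyp depended on single arrays and fell when either F344 array was left out, as did the share of all genes called. Each of those fits leaves a single F344 array. The Gapdh 3′ to 5′ group means were 2.86 in JBlyp/lyp against 2.20 in F344lyp, and 3.51 in JB against 2.39 in F344. With it as a covariate the medians were -3.18 with lyp and -1.73 without, and the standard errors grew to a median of 0.57 and 0.88, beside 0.25 in both without the covariate. Then 11 members were called lower with lyp, where 0.457% of all genes were, and 0 without lyp, where 0.0% were.

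DR+/+ islets lay further below F344 than JB islets did for most enzymes. DR+/+ against F344 called 32 members lower and 1 higher, where 23.8% of all genes were called lower and 16.3% higher, and the median was -2.87. The member called higher was Nr5a2, at 1.10 (SE 0.17). JB and DR+/+ were here set against the same F344 arrays. With the Gapdh covariate the median was -3.08 and 4 members were called lower, where 0.183% of all genes were called lower and 0.155% higher.

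**Figure D3:**
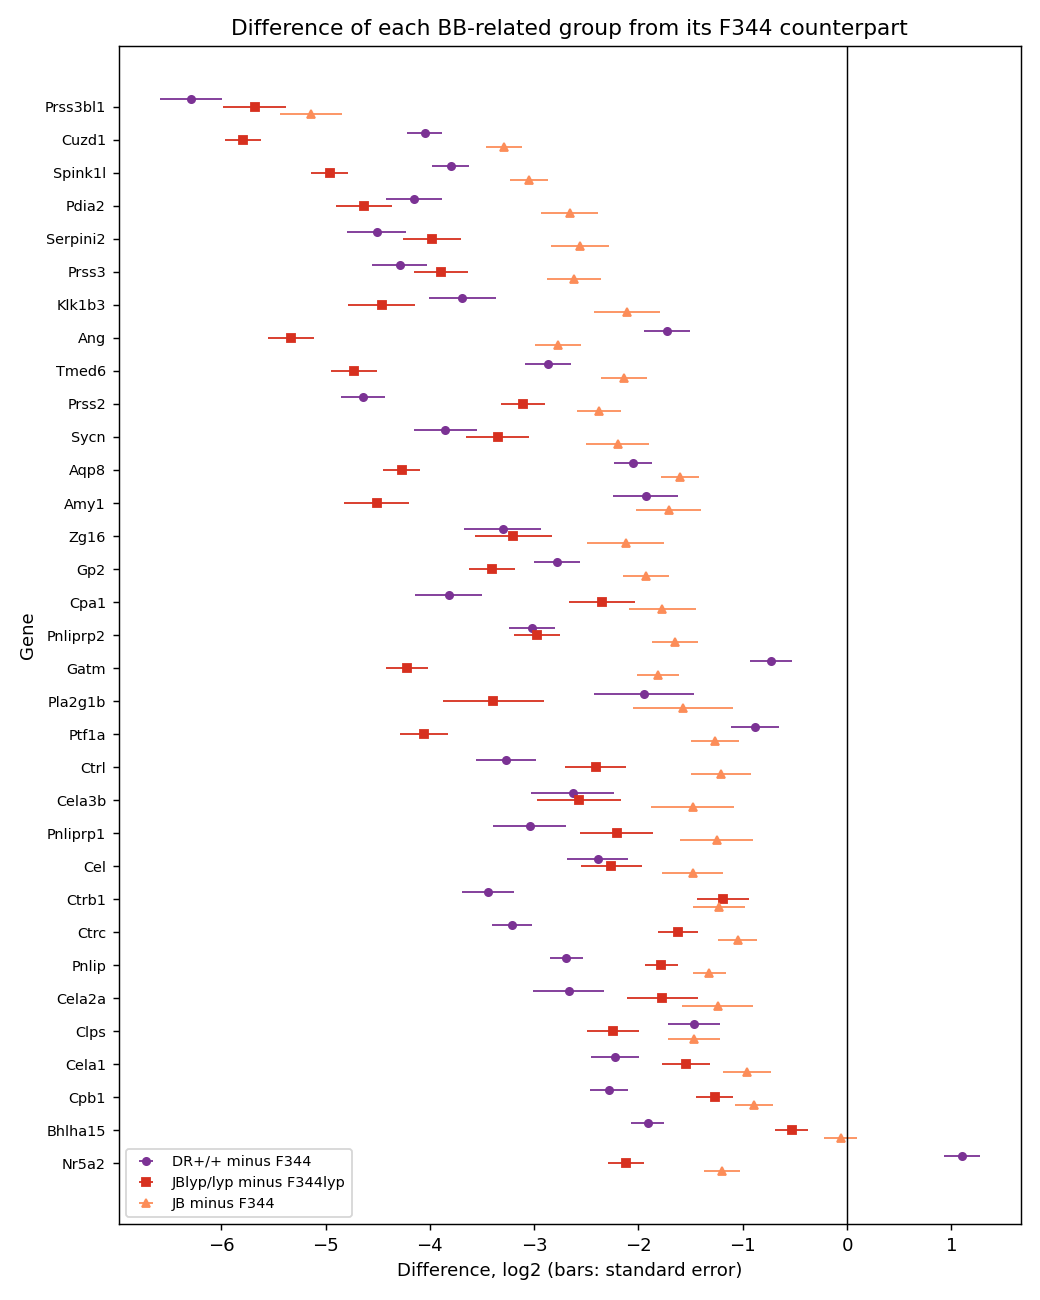
Difference of DR+/+ from F344 (circles), JBlyp/lyp from F344lyp (squares) and JB from F344 (triangles) for each of the 33 genes, in log2 units with bars of 1 standard error. JB triangles lie nearest to 0 for most genes, and Nr5a2 is the gene with a DR+/+ value above 0, at 1.10.

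The direct comparison of DR+/+ with JB, both without lyp and both BB-related, called 24 members lower and 3 higher, where 18.4% of all genes were called lower and 15.5% higher. Of the proteases 11 of 12 were lower, at a median of -1.62, and Cela3b at -1.15 was not called (limma adjusted p = 0.0569). Prss2 had 8.05 and 7.96 in DR+/+, against 10.34 and 10.20 in JB, a difference of -2.27 (SE 0.21, limma adjusted p = 5.28e-05), and Ctrb1 and Ctrc stood at -2.21 and -2.16. All 6 granule and folding genes were lower, between -1.64 (Sycn) and -0.72 (Tmed6). Of the starch and fat enzymes 4 of 7 were lower, and Clps at 0.00 (SE 0.25), Amy1 at -0.21 (SE 0.31) and Pla2g1b at -0.39 (SE 0.48) were not called. Ptf1a at 0.39 (SE 0.23) and Aqp8 at -0.44 (SE 0.18) were not called either. The 3 genes higher in DR+/+ were Nr5a2 at 2.30, Gatm at 1.08 and Ang at 1.04.

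Gatm had the opposite order to the enzymes among BB-related groups. It had 7.20 and 7.30 in DR+/+, 6.24 and 6.62 in JBlyp/lyp and 5.91 and 6.44 in JB, against 10.65 and 10.65 in F344lyp and 7.87 and 8.09 in F344. The DR+/+ arrays were thus above those of both JB groups and below F344. Islet cell markers also differed between DR+/+ and JB: 10 of 12 beta cell markers were lower and 0 higher, where 18.4% of all genes were lower and 15.5% higher, at a median of -1.86, and 8 of 10 other endocrine markers were lower and 2 higher. Endothelial markers were higher in 9 of 10 cases and lower in 0, stellate and fibroblast markers higher in 9 of 14 and lower in 0, and ductal markers higher in 6 of 15 and lower in 1. The part of these in the acinar result was not tested.

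The effect of lyp was measured on each background. In F344lyp against F344, 12 of 33 members were called higher and 0 lower, where 1.58% of all genes were called higher and 0.317% lower, and the median difference was 0.81. The 2 F344lyp arrays lay above the 2 F344 arrays for all 33 members, which held for 34.3% of all genes. Ang rose most, by 2.83 (SE 0.22, 7.13-fold higher, limma adjusted p = 0.000276), followed by Aqp8 at 2.68, Gatm at 2.67 and Ptf1a at 2.51. Tmed6 stood at 2.32, Cuzd1 at 2.27, Klk1b3 at 2.22, Amy1 at 2.04, Pdia2 at 1.79, Spink1l at 1.77, Serpini2 at 1.62 and Gp2 at 1.36. Most enzymes were not called: Prss3bl1 was at 1.44 (SE 0.30, limma adjusted p = 0.0504), Ctrc was at 0.22 (SE 0.19), Cpb1 at 0.24 (SE 0.18), Cela1 at 0.28 (SE 0.23) and Pnlip at 0.30 (SE 0.16). When any F344 or F344lyp array was left out, which leaves a single array in that group, the count fell, as did the share of all genes called. With the Gapdh covariate 7 stayed called, where 0.521% of all genes were called higher. These were Ang, Aqp8, Gatm, Ptf1a, Tmed6, Cuzd1 and Spink1l. The Gapdh group means were 2.20 in F344lyp and 2.39 in F344.

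The lyp difference in F344 was divided by the brightness of the probe set. All 12 genes called were among the 17 members whose probe sets had the lower mean over the 10 arrays, with a median difference of 1.79. The 16 brighter probe sets, split at a mean of 10.8, had a median of 0.50 and 0 calls. They hold the lipases, colipase, phospholipase, chymotrypsins, elastases and carboxypeptidases, Prss2 and Zg16, and their highest value was 13.92 to 14.05 on the F344lyp arrays, where the highest signal of any probe set was 14.12 to 14.14. For BB against F344 the medians were -2.19 in the brighter probe sets and -3.63 in the others. The split used the same arrays that are compared, and a larger fall in BB itself lowers the mean. These medians therefore do not separate brightness from the size of the fall. The probe set shared by Amy1 and another amylase gene, which is not counted as a member, lay between 13.77 and 14.08 on all 10 arrays (limma adjusted p = 0.344 for BB against F344). The part of signal saturation in these differences was not tested.

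In JBlyp/lyp against JB, 0 members were called in limma, where 1 of all 14217 genes was called higher (0.00703%) and 0 lower (0.0%). An unadjusted p under 0.05 was found for 2 of 33 members and for 6.03% of all genes, so the members were near that share. The median difference was -0.22, with a range from -0.76 (Amy1, SE 0.31) to 0.90 (Prss3bl1, SE 0.30, adjusted p = 0.647). Arrays of the pair of groups overlapped for all members but Prss3bl1, with JBlyp/lyp above, and Cuzd1, with JBlyp/lyp below, where 14.9% of all genes had every array above and 12.6% every array below. Replicate 1 lay above replicate 2 for most members in both groups: replicate 2 was the higher for 10 of 33 in JBlyp/lyp and 7 of 33 in JB. The widest gap was that of Pla2g1b in JBlyp/lyp, at 1.75.

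The difference between the lyp effects, JBlyp/lyp minus JB less F344lyp minus F344, was negative for 32 of 33 members. Of these 8 were called, where 0.429% of all genes were called negative and 0.0492% positive, and the median was -1.15. The 8 were Amy1 at -2.80, Ptf1a at -2.79, Aqp8 at -2.66, Tmed6 at -2.59, Ang at -2.57, Cuzd1 at -2.50, Gatm at -2.41 and Spink1l at -1.91. For Amy1, Ptf1a, Aqp8, Tmed6 and Ang, all 4 JBlyp/lyp and JB arrays lay below the median signal of their array, and for Cuzd1, Gatm and Spink1l 0 of these 4 arrays did. The part of low signal in these differences was not tested, so no order is drawn among the 8. The call count fell when any F344 or F344lyp array was left out, as did the share of all genes called, and Cuzd1 and Aqp8 stayed called. Each of those fits leaves a single array in that group. With the Gapdh covariate the median was -1.17 and 0 members were called, where 0.0422% of all genes were called negative and 0.0% positive.

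**Figure D4:**
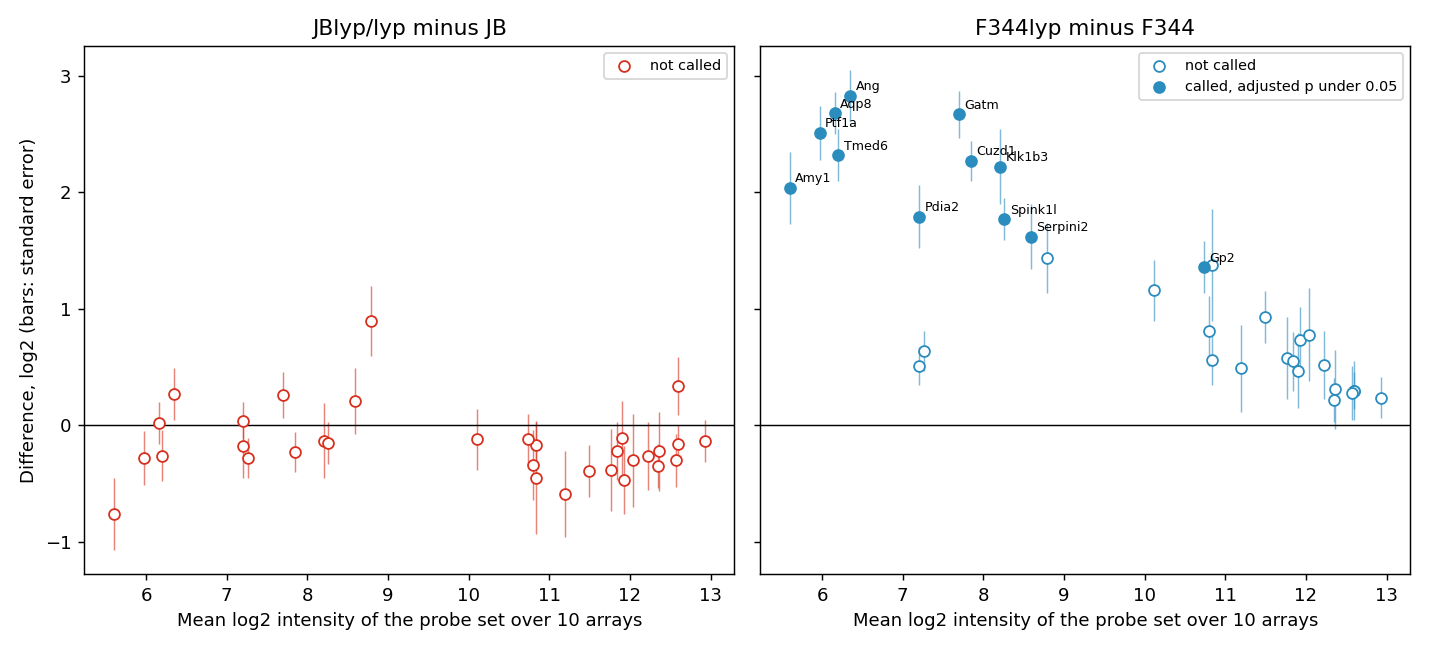
Difference with lyp minus without lyp in log2 units, with bars of 1 standard error, against the mean log2 intensity of each gene's probe set over 10 arrays, on the JB (left) and the F344 (right) background. Filled points are genes called at an adjusted p under 0.05, and all 12 lie on the F344 side, among the probe sets of lower mean intensity.

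The transcription factor genes moved apart from each other. Ptf1a, the pancreas-specific subunit of PTF1, had 5.56 and 5.10 in DR+/+, 4.41 and 4.90 in JBlyp/lyp and 5.19 and 4.68 in JB, against 8.67 and 8.77 in F344lyp and 6.16 and 6.26 in F344. It fell by 2.49 in BB-related islets (SE 0.15, limma adjusted p = 4.02e-06), and the F344lyp arrays were above all others. The size of this fall is uncertain, since 5 of the 6 BB-related values of Ptf1a lay below the median signal of their array. Bhlha15, which organises the secretory granules, had 5.51 and 5.65 in DR+/+, 7.32 and 7.63 in JBlyp/lyp and 7.27 and 7.60 in JB, against 8.05 and 7.96 in F344lyp and 7.54 and 7.44 in F344. Its JBlyp/lyp and JB arrays overlapped with those of F344. Its difference was -0.92 (SE 0.11) with all BB-related groups and -0.29 without DR+/+, which stood at -1.91 (SE 0.16) against F344.

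Nr5a2, a nuclear receptor that acts with PTF1 at acinar enzyme genes, had 8.52 and 8.57 in DR+/+, 5.71 and 6.23 in JBlyp/lyp and 6.23 and 6.27 in JB, against 8.04 and 8.15 in F344lyp and 7.49 and 7.41 in F344. DR+/+ was the highest group, and both JB groups were the lowest. Nr5a2 was the one member for which DR+/+ exceeded every other group. A second probe set of Nr5a2 went the same way, at 5.45 and 5.63 in DR+/+, 3.59 and 3.73 in JBlyp/lyp, 4.18 and 4.14 in JB, 5.51 and 4.99 in F344lyp and 4.61 and 4.47 in F344. The remaining probe set lay between 3.49 and 3.90, below the lower quartile of each array. For Gatm a second, dim probe set lay between 3.44 and 4.08 and stood 0.28 (SE 0.08) higher in BB-related islets, opposite to the bright one.

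**Figure D5:**
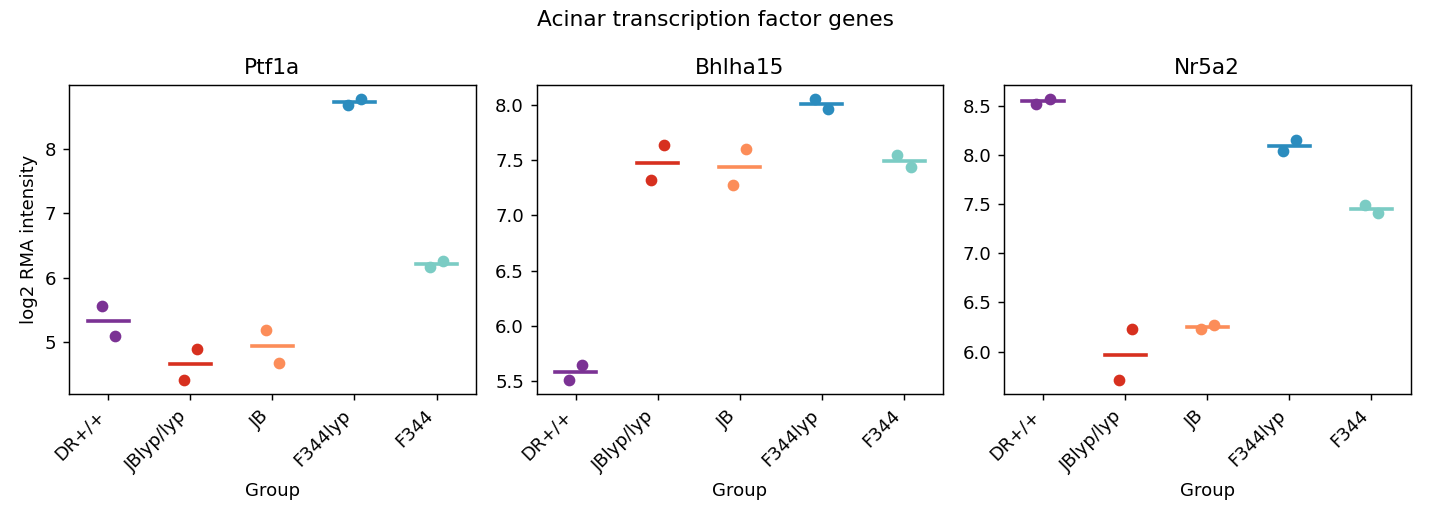
Log2 RMA intensity of Ptf1a, Bhlha15 and Nr5a2 on each array by group, with points for arrays and lines for group means. Ptf1a is highest in F344lyp (8.67 and 8.77), Bhlha15 lowest in DR+/+ (5.51 and 5.65), and Nr5a2 highest in DR+/+ (8.52 and 8.57) and lowest in JBlyp/lyp and JB.

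Across the 5 groups the members kept few orders. From low to high, 21 of 33 ran DR+/+, JBlyp/lyp, JB, F344, F344lyp, and 5 more (Prss3bl1, Ctrb1, Serpini2, Bhlha15 and Aqp8) differed from that in having JB below JBlyp/lyp. JBlyp/lyp and JB, neighbours in most of these orders, differed by no call. F344lyp was the highest group for 32 members and F344 for 0. DR+/+ was the lowest for 26, JBlyp/lyp for 5 (Amy1, Clps, Pla2g1b, Ptf1a and Nr5a2) and JB for 2 (Ang and Gatm).

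Other genes of the exocrine program were read from lists, also chosen with earlier results of these data known, from which the members were left out. Their counts in BB against F344 stand beside 24.6% of all genes lower and 13.3% higher. Of 15 other acinar genes measured, 10 were lower and 0 higher in BB against F344, at a median of -0.89 beside -0.04 over all genes. The fall was largest for Erp27, an endoplasmic reticulum protein, at -3.69 (SE 0.22), and for the trypsin inhibitor gene Spink1 at -3.59 (SE 0.21), while Dnase1 stood at 0.01 (SE 0.09). In F344lyp against F344, 6 of the 15 were higher and 0 lower, where 1.58% of all genes were called higher and 0.317% lower. Here Erp27 stood at 2.19 and the trefoil factor Tff2 at 2.10. Genes of protein entry into the secretory pathway were lower in 21 of 33 cases in BB against F344, at a median of -0.44. The count was 5 of 33 for JBlyp/lyp against F344lyp, where 11.3% of all genes were lower, and 4 of 33 for JB against F344, where 8.22% were, both near the share over all genes. In DR+/+ against JB 22 of these 33 were lower and 1 higher, where 18.4% of all genes were lower. Granule traffic genes were lower in 9 of 18 cases and higher in 1, with the mucin gene Muc1 at -1.88 (SE 0.11) and the small GTPase Rab26 at -1.50 (SE 0.18). The neuroendocrine granule enzyme Cpe stood at 0.24 (SE 0.11, limma adjusted p = 0.129). Of 18 secretagogue receptor and calcium signalling genes 3 were lower and 4 higher, not far from the shares over all genes, with the secretin receptor Sctr at -1.57 (SE 0.11) and the phospholipase C gene Plcb1 at 0.87 (SE 0.16). Of 11 developmental factors 4 were lower and 0 higher, with Pdx1 at -1.41 (SE 0.14) and Gata4 at -0.84 (SE 0.12). Pdx1 is also counted among the beta cell markers. It averaged 6.93 in DR+/+, 8.46 in JBlyp/lyp, 8.61 in JB, 9.39 in F344 and 9.43 in F344lyp. Gata4 averaged 6.14 in F344lyp and 4.56 to 4.84 in the other groups.

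Markers of other cells were counted in the same comparisons, and their counts in BB against F344 again stand beside 24.6% of all genes lower and 13.3% higher. In BB against F344, macrophage and dendritic cell markers were lower in 11 of 15 cases and higher in 0, at a median of -0.80, and their mean was 5.52 to 5.89 on BB-related arrays and 6.27 to 6.68 on F344lyp and F344 arrays. Intestinal epithelium markers were lower in 8 of 12 and higher in 0, at a median of -0.36. In F344lyp against F344, 4 of 12 intestinal markers were higher, where 1.58% of all genes were called higher and 0.317% lower. These 4 included the lectin Lgals4 at 2.37 and the apolipoprotein Apoa1 at 2.27. The mean of the intestinal markers was 5.67 to 5.69 on F344lyp arrays and 4.79 to 4.82 on F344 arrays. On BB-related arrays it was 4.67 to 4.79, close to that of F344 and below that of F344lyp. Ductal markers were lower in 5 of 15 and higher in 2 in BB against F344. They ranged from Muc1 at -1.88 (SE 0.11), also counted among the granule traffic genes, to Cldn4 at 0.34 (SE 0.09). The ductal keratin Krt19 stood at 0.23 (limma adjusted p = 0.262). Beta cell markers were lower in 7 of 12 and higher in 0, at a median of -0.54. In JBlyp/lyp against F344lyp the beta cell median was 0.05 beside an acinar median of -3.20, and in JB against F344 it was -0.07 beside -1.65. Endothelial markers were higher in 7 of 10 and lower in 1, and stellate and fibroblast markers higher in 5 of 14 and lower in 3. For both lists DR+/+ stood apart. The endothelial mean was 9.62 to 9.66 in DR+/+, 8.64 to 8.77 in JB and 8.44 to 8.54 in JBlyp/lyp. It was 8.32 to 8.68 in F344lyp and F344. The stellate and fibroblast mean was 9.01 to 9.07 in DR+/+, 8.03 to 8.09 in JB and 7.82 to 8.17 in JBlyp/lyp. It was 8.11 to 8.27 in F344lyp and F344. Other endocrine markers were lower in 5 of 10 and higher in 2. T and B cell markers were lower in 2 of 11 and higher in 0, and erythroid markers higher in 1 of 5 and lower in 0. The T and B cell count lies below the share over all genes. The part of these cells in the acinar differences was not tested.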

How the data were processed

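Expression was deposited as log2 intensity, 1 value for each probe set on each array. Per the submitters' processing notes, the authors used GCOS and RMA (versions not given in the sources used here). They were used as deposited, from 31099 probe sets, of which 57 Affymetrix controls were set aside and 31042 tested. For arrays, their number (2 per group) limits the precision. The platform's annotation names a single symbol for 20826 probe sets. Promoter sequences and motifs came from RefSeq (GRCr8) and use no array values.

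All probe sets were fitted together, each group having its own mean, with limma 3.58.1 in R 4.3.3 (lmFit, eBayes, 5 residual and 4.72 prior degrees of freedom). Comparisons were contrasts of the 5 means, tested two-sided, with Benjamini-Hochberg adjustment over all probe sets and a threshold of 0.05. BB is the mean of 3 group means and F344 the mean of 2. The fitting code was run on simulated arrays that had no spread between groups of the same background. That run therefore cannot speak to the p-values of BB against F344 where such spread exists. Alternatives were single arrays left out, replicate number as a block, quantile normalization, median centring, a filter on dim probe sets, eBayes with trend, array weights, averaged probe sets, a minimum difference of 1, the Gapdh covariate, the group as a random block, and DR+/+ left out. Arrays are shown in every value for the members with the largest and smallest BB difference in each role, and for the transcription factors. The members and lists were chosen with earlier results of these data known. Plots used matplotlib 3.10.9 (Python 3.11.15).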

Additional observations from a re-analysis of the deposited data

Results flagged for a closer look

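The measured lyp difference was lower on the JB than on the F344 background for 8 genes, by the interaction contrast of limma with Benjamini-Hochberg adjustment. Values are the lyp effect in JB minus that in F344 on the log2 scale. The secretion genes among them were Amy1 at -2.80 (SE 0.44, adjusted p = 0.0389), Ang at -2.57 (SE 0.31, adjusted p = 0.0106) and Spink1l at -1.91 (SE 0.26, adjusted p = 0.0196). The granule and transport genes were Cuzd1 at -2.50 (SE 0.24, adjusted p = 0.00253) and Tmed6 at -2.59 (SE 0.32, adjusted p = 0.0106), and the transcription factor was Ptf1a at -2.79 (SE 0.32, adjusted p = 0.0083). The channel gene Aqp8 stood at -2.66 (SE 0.25, adjusted p = 0.00253) and Gatm at -2.41 (SE 0.28, adjusted p = 0.0083). Cuzd1 and Aqp8 stayed called without each F344 or F344lyp array. For Amy1, Ang, Tmed6, Ptf1a and Aqp8, all 4 JBlyp/lyp and JB arrays lay below the median signal of their array, and for Cuzd1, Gatm and Spink1l 0 of 4 did. The part of low signal in these differences was not tested. With the Gapdh covariate 0 of the 8 were called, where 0.0422% of all genes were called negative.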

How the results depend on the processing

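No called difference of a member turned its direction under the alternatives run. Without single arrays the number of members called ranged from 33 to 33 for BB against F344, 31 to 33 for DR+/+ against F344, 29 to 33 for JBlyp/lyp against F344lyp, 18 to 32 for JB against F344, 20 to 28 for DR+/+ against JB, 0 to 0 for JBlyp/lyp against JB, 7 to 17 for F344lyp against F344 and 2 to 12 for the difference between the lyp effects. With the Gapdh covariate the counts were 1 for BB against F344, 11 for JBlyp/lyp against F344lyp, 0 for JB against F344, 4 for DR+/+ against F344, 7 for F344lyp against F344 and 0 for the difference between the lyp effects. For DR+/+ against JB 17 members were then lower and 3 higher, where 12.7% of all genes were called lower and 11.2% higher. The cause of the changes with this covariate was not tested. Array weights gave 19 for F344lyp against F344, where 5.89% of all genes were called higher and 2.17% lower. Without the weights those shares were 1.58% and 0.317%. Deviations of same-numbered arrays correlated at 0.652 between JBlyp/lyp and JB, 0.2 to 0.237 between these groups and F344lyp or F344, and -0.101 to 0.079 in the other 5 pairs of groups, so the numbers were not taken to pair the samples throughout. With the replicate block the counts were 33, 33, 33, 32, 28, 0, 14 and 9 in the order of comparisons given above, so the block changed no count by over 1.5 times. Quantile normalization, median centring, the filter on dim probe sets, eBayes with trend, averaged probe sets and a minimum difference of 1 kept all counts within 1.5 times. Fits without a single array leave 1 array in its group, and the shares of all genes called also moved between them. The number of arrays, 2 per group, limits all of these comparisons.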
